A study of Mus musculus with 12 samples.

Results

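Acetaminophen changed liver transcripts by different amounts in control mice and in mice lacking Fbxl5 in CD11c-expressing cells, and the genes with such a difference are described here. The quantity is the interaction of genotype and drug: the change from 0 h to 6 h in FBXL5ΔDC livers minus the same change in control livers, on the log2 scale. A negative value means that transcripts ended lower after the drug in FBXL5ΔDC livers than the control response would give, and a positive value that they ended higher. All 12 samples of the study enter it, 3 in each of 4 groups, and all 17585 genes with enough counts were tested out of 55401 in the table. Both genotypes carried Fbxl5 alleles flanked by loxP sites (FBXL5F/F), and the FBXL5ΔDC mice (Cd11c-Cre/Fbxl5F/F) carried Cre recombinase under the Cd11c promoter in addition. Livers came from untreated mice (0 h) or were taken 6 h after acetaminophen (APAP), in males of 7 to 10 weeks. The labels give an injected dose of 300 or 500 mg/kg after a fast of 16 h, and do not say which dose these mice received or whether the 0 h mice were fasted.

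Acetaminophen is turned into a reactive quinone imine by cytochrome P450 enzymes, above all CYP2E1, that sit in the hepatocytes around the central vein. The quinone imine uses up glutathione and binds proteins, and pericentral hepatocytes are the first to be injured. FBXL5 is the iron-sensing part of a ubiquitin ligase that destroys iron regulatory protein 2 (IRP2, encoded by Ireb2), so that its loss leaves IRP2 active and lets a cell take up iron. CD11c, encoded by Itgax, marks dendritic cells, although some macrophages carry it too. Hepatocytes make up most of the RNA of a whole liver, and in such bulk samples fewer cells of a type and less RNA per cell cannot be told apart.

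Total counts ran from 67173096 to 72512319 per library. Neither the deleted gene nor Itgax, whose promoter drives Cre, passed the interaction test in whole liver. Fbxl5 was at 20.7, 21.96 and 17.6 CPM (counts scaled to a common library size) in untreated control livers and at 10.3, 19.8 and 21.4 CPM in untreated FBXL5ΔDC livers. After the drug it was at 13.3, 19.2 and 14.99 CPM in control and 21.4, 21.8 and 12.5 CPM in FBXL5ΔDC livers, an interaction of 0.46 (SE 0.39, edgeR adjusted p = 0.635). Itgax lay between 0 and 0.584 CPM in the 12 libraries, where the detection floor of 12 counts was at 0.148 to 0.197 CPM. Its interaction of 0.62 had an SE of 1.92 (edgeR adjusted p = 0.924). The 3 treated control livers were not alike. Replicate 3 lay close to the treated FBXL5ΔDC livers in many genes, so values without that library stand beside the main ones below. Where nothing says that replicates came from separate cages or litters, the p-values measure only the spread between these samples.

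With all 12 libraries, the interaction was higher in 6 genes (0.0341% of those tested) and lower in 45 genes (0.256%) at an adjusted p below 0.05 in edgeR's quasi-likelihood test. At an unadjusted p below 0.05 there were 914 higher and 1629 lower genes. Without treated control replicate 3, 1103 genes were higher (5.97% of 18464) and 1430 were lower (7.74%), and all 51 genes were among them with the same sign. Without any other single library, 0 to 4 genes were higher and 1 to 18 lower. DESeq2 gave 213 higher and 476 lower genes on the same libraries, and limma with sample quality weights gave 975 and 1239. Calls by these programs and counts at an unadjusted p within the lists below are to be read against these totals of 17585 genes. Cyp2c38 was called under all 21 alternatives and Ddit3 under 17, whereas each other called gene held in 4 to 14.

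The genotypes differed mainly in the treated livers. Over all genes tested, the median absolute difference between genotypes was 0.18 on the log2 scale at 0 h and 0.40 at 6 h. In the 51 genes it was 0.20 and 1.70, but the interaction that chose them is the 6 h difference minus the 0 h one. At 0 h no gene passed the genotype test in edgeR in either direction (0.00% higher and 0.00% lower, 465 genes at an unadjusted p below 0.05). At 6 h 1.35% of genes were higher and 4.51% lower in FBXL5ΔDC livers, and 48 of the 51 genes were among them. In each of the 45 lower genes the 3 treated FBXL5ΔDC libraries all lay below the 3 treated control libraries, an arrangement found in 11.2% of all genes. In each of the 6 higher genes they all lay above, as in 9.74% of all genes. The choice by interaction favours such separation and calls at 6 h, so these counts are no separate support. Among the 51 genes, those with a larger genotype difference at 0 h than at 6 h were Fam222a, Gm26586 and Gm15501. At 0 h the libraries of the genotypes did not overlap in 17 of the 51 genes, against 2064 of all 17585. FBXL5ΔDC livers lay above control in 13 lower genes and below in 4 higher genes, so 0 h values added to those interactions. The same choice favours this.

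Set by the separate responses, the called genes fell into a few patterns. In control livers 6.36% of all genes rose and 4.20% fell after acetaminophen, and in FBXL5ΔDC livers 15% rose and 15.1% fell. Of the 45 lower genes, 24 passed as a fall in FBXL5ΔDC livers without passing in control livers, and 13 fell in both genotypes, further in FBXL5ΔDC livers. Another 3 rose in control livers without passing in FBXL5ΔDC livers (Ddit3, Jun and Dnajb1), 3 rose in control and fell in FBXL5ΔDC livers (Ubb, Ubb-ps and Hhex), and 2 rose in both, less in FBXL5ΔDC livers (Prg4 and Lor). Of the 6 higher genes, Plin5 and Peg3 fell in control livers only by the test, Mpzl1 and Gm15501 fell in control and rose in FBXL5ΔDC livers, and Nt5c2 and Gm26586 passed as a rise in FBXL5ΔDC livers alone.

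**Figure D1:**
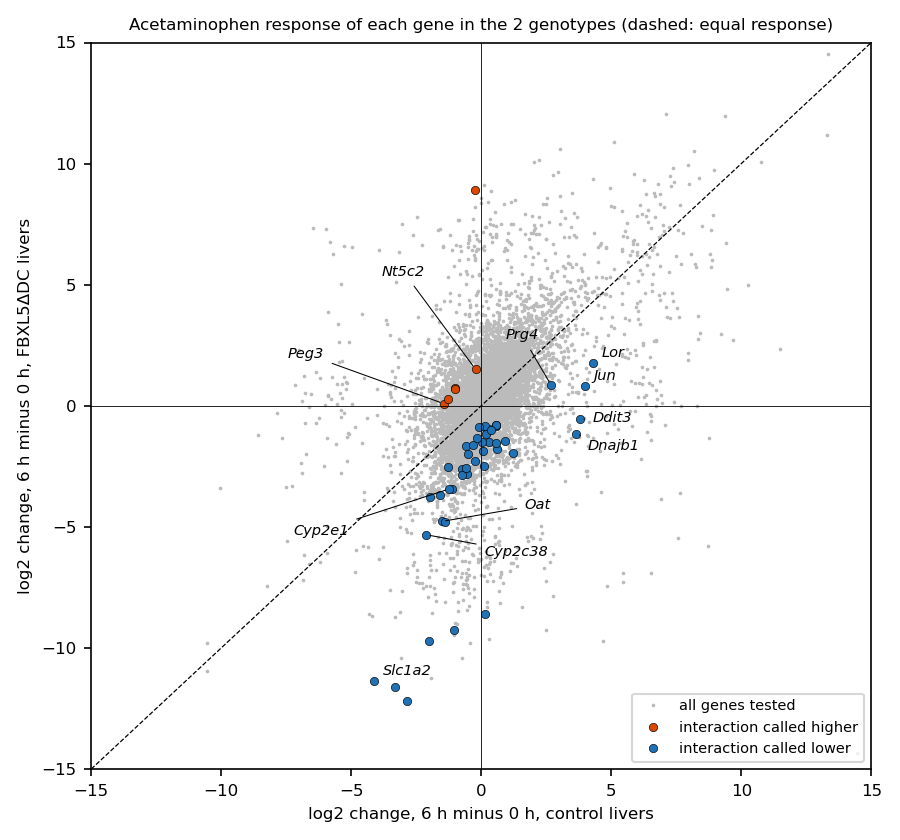
Each point is 1 of the 17585 genes tested, placed by its log2 change from 0 h to 6 h in control livers (horizontal axis) and in FBXL5ΔDC livers (vertical axis). The 45 genes with a lower interaction (blue) lie under the dashed line of equal response, with Ddit3, Jun and Dnajb1 far to the right, and the 6 with a higher one (orange) lie above it.

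Pericentral hepatocyte genes held the most called members of any list. Of 27 tested, 8 were called lower (0.256% of all genes) and 0 higher (0.0341% of all genes), and 24 had a negative interaction. Their median interaction was −1.96, against −0.02 over all genes. The median response was −1.14 in control livers and −3.27 in FBXL5ΔDC livers, with 12 members that fell and 1 that rose in control and 24 that fell in FBXL5ΔDC livers. In 17 of the 27 the treated FBXL5ΔDC libraries all lay below treated control, and in none above, against 11.2% and 9.74% of all genes. Leaving out 1 library at a time kept the median between −2.21 and −1.77. The number of calls was less steady. Without treated control replicate 3, 17 were called lower, and without any other single library 1 to 5. DESeq2 called 17 lower and limma with quality weights 16.

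Cyp2c38 (ENSMUSG00000032808.2, GRCm38 chromosome 19 from 39389556 to 39463075, minus strand), a cytochrome P450 of the 2c family, had the smallest p of all genes. It was at 79.9, 87.8 and 67.5 CPM in untreated control and 47.2, 86.6 and 75.5 CPM in untreated FBXL5ΔDC livers. After acetaminophen it was at 21.98, 13.8 and 18.2 CPM in control and 1.69, 1.53 and 2.01 CPM in FBXL5ΔDC livers. The untreated groups overlapped and the treated groups did not, and treated control replicate 3 lay between the other 2 control livers. The fall was 2.12 on the log2 scale in control and 5.32 in FBXL5ΔDC livers, an interaction of −3.20 (SE 0.33, edgeR adjusted p = 0.00459). Cyp2c genes are close relatives, and how shared reads were counted was not given, so the split between Cyp2c38, Cyp2c29 and Cyp2c37 is uncertain.

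The enzymes that activate acetaminophen moved the same way. Cyp2e1 (ENSMUSG00000025479.9, chromosome 7 from 140763739 to 140774987, plus strand) was at 6972, 9672 and 8020 CPM in untreated control and 9552, 8947 and 8793 CPM in untreated FBXL5ΔDC livers. At 6 h it was at 4527, 2513 and 3493 CPM in control and 1178, 701 and 649 CPM in FBXL5ΔDC livers. All treated livers were thus below all untreated ones, and FBXL5ΔDC livers were lowest, with an interaction of −2.21 (SE 0.35, edgeR adjusted p = 0.0327). Cyp1a2 (chromosome 9 from 57676937 to 57683703), another oxidase of acetaminophen, was at 257, 202 and 135 CPM in treated control and 77.7, 50.5 and 47.6 CPM in treated FBXL5ΔDC livers. It started higher in FBXL5ΔDC livers, at 433, 363 and 447 CPM against 300.5, 310.5 and 267 CPM in control, and its interaction was −2.25 (SE 0.32, edgeR adjusted p = 0.0293). Cyp2a5, another pericentral P450, was at 176 to 453 CPM in untreated control and 275 to 510.5 CPM in untreated FBXL5ΔDC livers. At 6 h it was at 1286, 1120 and 337 CPM in treated control and 45.3, 28.5 and 11.1 CPM in treated FBXL5ΔDC livers. Its interaction of −5.18 (SE 0.89) missed the threshold (edgeR adjusted p = 0.0532).

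Across the 21 genes of acetaminophen activation and conjugation, 2 were called lower in edgeR, Cyp2e1 and Cyp1a2, and 14 had a negative interaction, with a median of −0.32. DESeq2 called 3 lower, and limma with quality weights 5 lower and 1 higher. In edgeR without any 1 of the 6 untreated libraries, or without treated FBXL5ΔDC replicate 2 or 3, 0 were called. The conjugating enzymes named here had smaller values. Ugt1a1, which glucuronidates, was at −0.21 (SE 0.25), Sult1a1, which sulfates, at 0.14 (SE 0.21) and Gstp1, a glutathione transferase, at −0.40 (SE 0.27), none past the edgeR threshold. Gsta3, another glutathione transferase, was at 626, 539 and 491 CPM in treated control and 363, 331 and 189 CPM in treated FBXL5ΔDC livers, an interaction of −0.94 (SE 0.30, edgeR adjusted p = 0.173).

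Other pericentral metabolic genes were called too. Oat (chromosome 7 from 132557478 to 132576398), ornithine aminotransferase, was at 389.7, 365 and 146 CPM in treated control and 44.4, 34.5 and 30.0 CPM in treated FBXL5ΔDC livers. Its interaction was −3.25 (SE 0.47, edgeR adjusted p = 0.0293). Gulo (chromosome 14 from 65986786 to 66009207), which makes the last enzyme of the vitamin C pathway, stood at 147, 106 and 62.8 CPM in treated control and 31.9, 22.6 and 29.1 CPM in treated FBXL5ΔDC livers, with an interaction of −2.29 (SE 0.34, edgeR adjusted p = 0.0293). Cyp2c29, at 370, 398 and 315 CPM against 123, 97.9 and 97.6 CPM, had an interaction of −1.96 (SE 0.36, edgeR adjusted p = 0.0483). In Oat and Gulo control replicate 3 was the lowest of the treated control livers, though still above each FBXL5ΔDC liver.

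Slc1a2, the glutamate transporter of pericentral hepatocytes, fell below detection in treated FBXL5ΔDC livers. It was at 139, 153 and 134 CPM in untreated control and 144, 187 and 177 CPM in untreated FBXL5ΔDC livers. At 6 h it was at 12.3, 11.1 and 1.099 CPM in control and at 0.123, 0 and 0.0596 CPM in FBXL5ΔDC livers, under the detection floor. The mean fell 17.4-fold in control livers and at least 907-fold in FBXL5ΔDC livers, when the latter is set at a floor of 12 counts per library. Slc13a3, a sodium-coupled dicarboxylate transporter, was at 0.684, 1.08 and 0.256 CPM in control livers after the drug, while all treated FBXL5ΔDC livers had 0. It fell 7.25-fold in control and at least 44.8-fold in FBXL5ΔDC livers. Sp5, a Wnt target, fell 4.09-fold and at least 8.06-fold, although its fall did not pass the test in control livers (edgeR adjusted p = 0.0509).

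Several Wnt-dependent genes that mark this zone did not pass, though all lay below treated control or close to 0 in FBXL5ΔDC livers. Tbx3 was at 34.2, 15.8 and 2.81 CPM in treated control and 0.630, 0.673 and 0.671 CPM in treated FBXL5ΔDC livers (interaction −4.58, SE 0.92, edgeR adjusted p = 0.0785). Its antisense transcript Tbx3os1, from which reads of Tbx3 cannot be told apart without strand, was called: it fell 10.1-fold in control and at least 29.5-fold in FBXL5ΔDC livers. Axin2 was at 8.59, 6.88 and 1.38 CPM against 0.246, 1.198 and 0.313 CPM, and Lgr5 at 1.94, 1.46 and 0.0602 CPM against 0, 0 and 0.0894 CPM. In all 3 genes treated control replicate 3 was the lowest control liver, and without it each interaction passed, with edgeR adjusted p = 6.04e-06 for Tbx3, 0.00354 for Axin2 and 0.000246 for Lgr5.

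Glul, glutamine synthetase of the innermost pericentral hepatocytes, did not pass. It was at 578, 576 and 514 CPM in untreated control and 637, 730 and 640 CPM in untreated FBXL5ΔDC livers. At 6 h it was at 143, 52.7 and 102 CPM in control and 110, 129 and 136 CPM in FBXL5ΔDC livers. It fell by 2.489 in control and by 2.42 in FBXL5ΔDC livers on the log2 scale, and the interaction was 0.07 (SE 0.36, edgeR adjusted p = 0.966). Cyp27a1, with an interaction of −0.23 (SE 0.31), and Cyp2c54, at −0.47 (SE 0.46), were likewise far from the threshold.

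Periportal and urea cycle genes, which mark the opposite end of the lobule, had a positive median. Of 22, 16 had a positive interaction, with a median of 0.34 (0.15 without treated control replicate 1), and none was called in edgeR (4 higher at an unadjusted p below 0.05), while DESeq2 called 3 higher and limma with quality weights 5. Asl, argininosuccinate lyase, was at 837, 784 and 661 CPM in treated control and 1156, 1203 and 1160 CPM in treated FBXL5ΔDC livers (interaction 0.75, SE 0.21, edgeR adjusted p = 0.135).

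Further falls that were deeper in FBXL5ΔDC livers involved transcription, receptors and metabolism. Hexim1, an inhibitor of the elongation kinase P-TEFb, was at 36.7, 37.3 and 21.2 CPM in treated control and 10.8, 8.24 and 9.48 CPM in treated FBXL5ΔDC livers. Its interaction was −1.86 (SE 0.28, edgeR adjusted p = 0.0293). Lhpp, a phosphatase, was at 41.0, 31.7 and 14.9 CPM against 3.30, 1.75 and 2.10 CPM (−3.38, SE 0.53, edgeR adjusted p = 0.0386). Both genes were lowest among treated control livers in replicate 3. Akr1c6, an aldo-keto reductase of steroids, had an interaction of −2.11 (SE 0.31), Npr2, the receptor of C-type natriuretic peptide, of −2.10 (SE 0.35), and Tenm3, a teneurin, of −1.81 (SE 0.33).

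In 24 lower genes a fall passed in FBXL5ΔDC livers alone. Papola, a poly(A) polymerase, was at 108, 93.5 and 81.6 CPM in control livers at 6 h, near its untreated range of 82.2 to 92.5 CPM, and at 50.6, 51.6 and 43.9 CPM in treated FBXL5ΔDC livers. Its interaction was −0.99 (SE 0.17, edgeR adjusted p = 0.0456). Pparg, a nuclear receptor of lipid storage, was at 13.8, 9.60 and 6.33 CPM in treated control and 1.58, 0.952 and 1.85 CPM in treated FBXL5ΔDC livers (−2.58, SE 0.42, edgeR adjusted p = 0.0386). In treated control livers neither gene changed by the test, and in FBXL5ΔDC livers both fell below every control value. Ints6, an Integrator subunit, was at −1.93 (SE 0.34), Nr3c2, the mineralocorticoid receptor, at −1.77 (SE 0.27), Bcorl1, a corepressor, at −2.04 (SE 0.34), and Abtb2 at −2.41 (SE 0.38). Hhex, a homeobox factor of hepatocytes, rose in control livers to 127, 87.8 and 112 CPM and fell in FBXL5ΔDC livers to 70.0, 46.6 and 54.1 CPM (−1.35, SE 0.24, edgeR adjusted p = 0.0483).

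**Figure D2:**
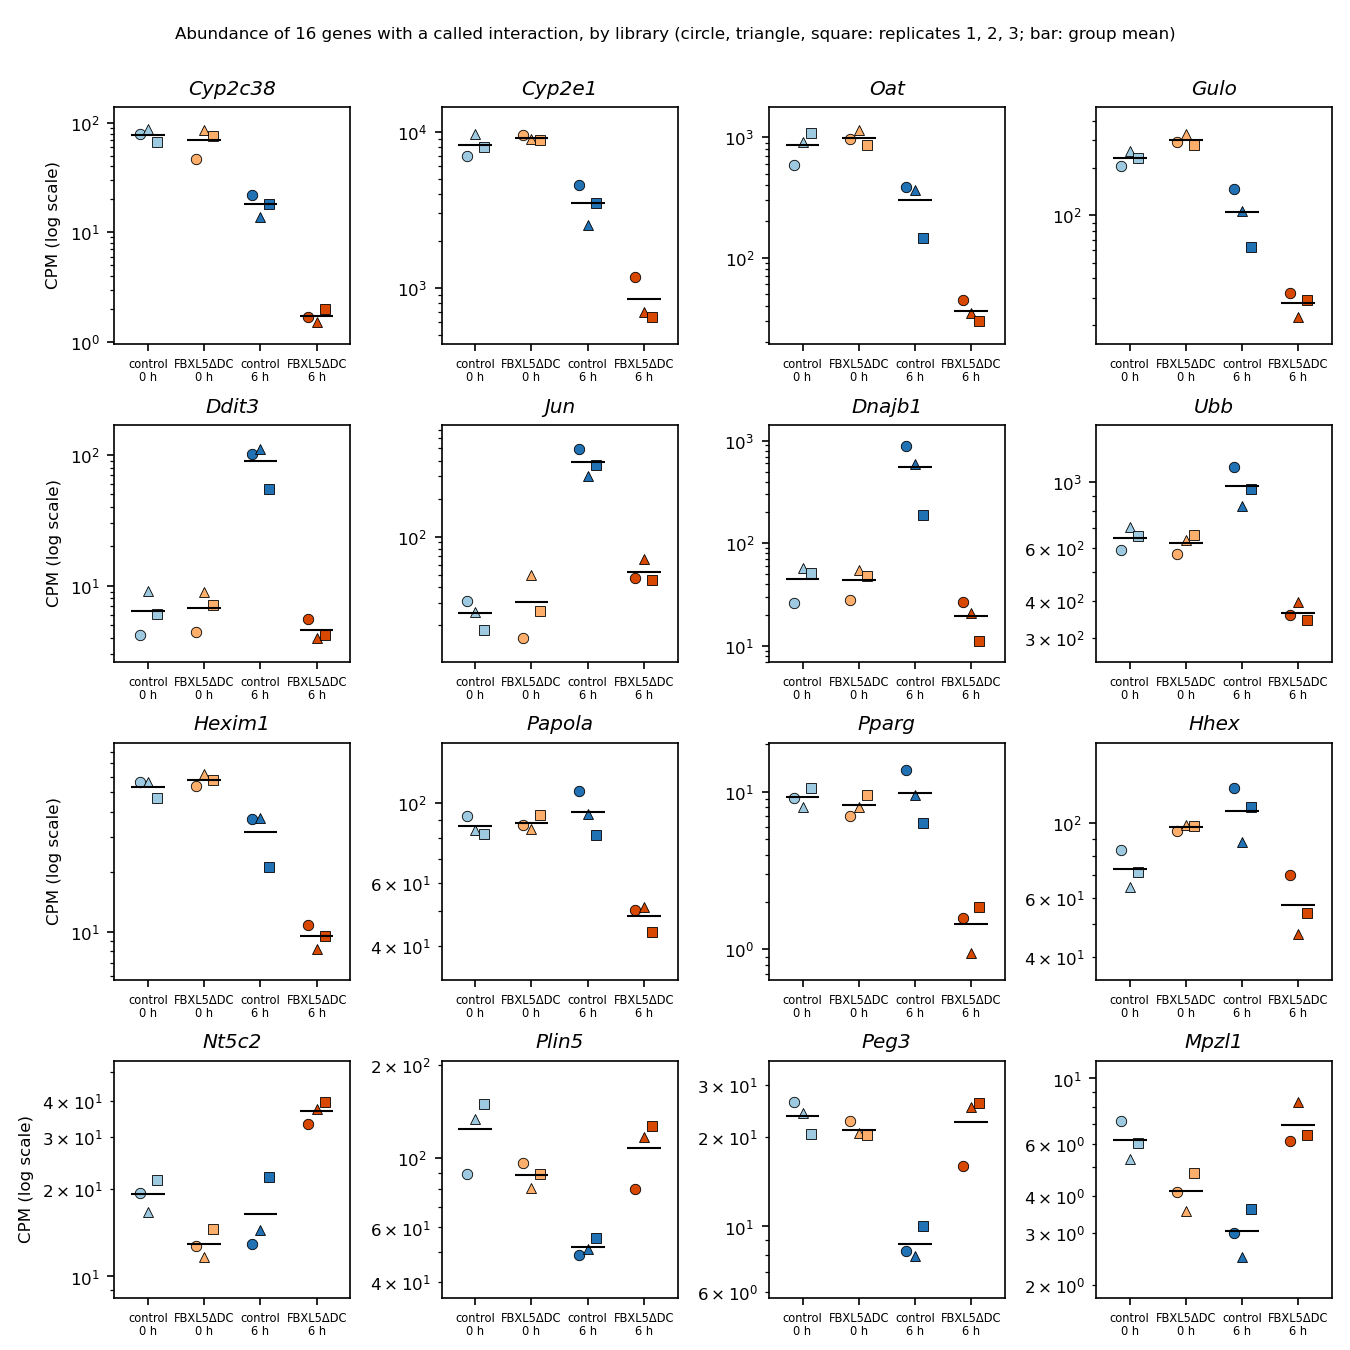
CPM (log axis) of 16 called genes in each of the 12 libraries, by group, with the bar at the group mean. In the first 12 panels the treated FBXL5ΔDC libraries lie below all treated control libraries, as for Ddit3 (55.1 to 111 CPM in control, 4.02 to 5.56 CPM in FBXL5ΔDC livers), and in the last 4 they lie above.

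The stress genes whose rise passed in control livers alone encode a transcription factor of the integrated stress response (Ddit3), a subunit of AP-1 (Jun) and a cochaperone of the major heat shock protein (Dnajb1). To show what lies before their start sites, the promoter stretches of these genes and of Lor are given from RefSeq on GRCm38.p6, read on the strand of the gene. Capitals mark the motif named after each line.

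Ddit3, chr10:127290543-127290792, plus strand, AP-1 motif: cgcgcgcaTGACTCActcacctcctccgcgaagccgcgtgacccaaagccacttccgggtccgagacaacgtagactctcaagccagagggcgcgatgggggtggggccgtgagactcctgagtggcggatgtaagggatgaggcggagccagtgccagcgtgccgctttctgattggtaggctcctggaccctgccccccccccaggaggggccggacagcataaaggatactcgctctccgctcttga
Jun, chr4:95052223-95052372, minus strand, heat shock element: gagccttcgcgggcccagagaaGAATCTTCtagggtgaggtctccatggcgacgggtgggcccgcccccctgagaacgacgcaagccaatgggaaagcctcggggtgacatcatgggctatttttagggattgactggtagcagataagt
Dnajb1, chr8:83608025-83608174, plus strand, antioxidant response element on the other strand: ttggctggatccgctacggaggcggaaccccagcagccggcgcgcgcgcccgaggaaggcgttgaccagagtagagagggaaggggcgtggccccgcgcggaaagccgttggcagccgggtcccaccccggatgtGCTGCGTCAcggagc
Lor, chr3:92083143-92083292, minus strand, AP-1 motif: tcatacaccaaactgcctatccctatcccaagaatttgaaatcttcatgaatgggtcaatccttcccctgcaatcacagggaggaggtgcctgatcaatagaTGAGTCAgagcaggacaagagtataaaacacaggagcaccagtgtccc

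Motifs were searched on both strands in windows from 250 bases before to 50 bases after each RefSeq start, and 43 of the 51 called genes had a window. The AP-1 motif TGANTCA was found in 10.5% of the 38 lower genes with a window and in 8.97% of all 27025 genes. The cyclic AMP element TGACGTCA was in 2.63% and 2.03%, and the antioxidant element TGACNNNGC in 15.8% and 14%. The heat shock element GAANNTTC was in 7.89% and 9.04%, and the CHOP and ATF4 composite element TGATGNAA in 5.26% and 4.51%. AP-1 sequences can overlap cyclic AMP and antioxidant elements. Among the lower genes that rose in control livers, 3 of the 6 with a window held an AP-1 motif, 2 an antioxidant element, 2 a CHOP and ATF4 element, 1 a heat shock element and 0 a cyclic AMP element. These are matches of letters, not bound sites.

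Ddit3 (ENSMUSG00000025408.15, chromosome 10 from 127290774 to 127296288) encodes CHOP. It was at 4.18, 9.09 and 6.07 CPM in untreated control and 4.43, 8.90 and 7.08 CPM in untreated FBXL5ΔDC livers. At 6 h it was at 102, 111 and 55.1 CPM in control and at 5.56, 4.02 and 4.22 CPM in FBXL5ΔDC livers. All treated control livers were thus above every other library, and treated FBXL5ΔDC livers were within the untreated range or just under it. The interaction was −4.36 (SE 0.49, edgeR adjusted p = 0.0114). The gene overlaps Mars on the other strand, and the strand setting of the counting was not given.

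Jun (ENSMUSG00000052684.4, chromosome 4 from 95049034 to 95052222) was at 30.9, 25.2 and 18.2 CPM in untreated control and 15.7, 49.2 and 25.7 CPM in untreated FBXL5ΔDC livers. It was at 497, 304 and 370.5 CPM in treated control and 46.6, 66.4 and 45.2 CPM in treated FBXL5ΔDC livers. Replicate 3 lay within the treated control range here. The response was 3.98 in control and 0.80 in FBXL5ΔDC livers (the latter not called, edgeR adjusted p = 0.123), an interaction of −3.17 (SE 0.53, edgeR adjusted p = 0.0465). Dnajb1 (chromosome 8 from 83608193 to 83612653) was at 880, 592 and 191 CPM in treated control and 26.5, 20.9 and 11.3 CPM in treated FBXL5ΔDC livers. Untreated livers of both genotypes had 26.1 to 57.5 CPM, and the interaction was −4.79 (SE 0.78, edgeR adjusted p = 0.0483).

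A ubiquitin gene was called too. Ubb (chromosome 11 from 62551171 to 62553213) was at 1127, 829 and 946 CPM in treated control and 358, 395 and 345 CPM in treated FBXL5ΔDC livers, with untreated livers between 575 and 705 CPM. It rose by 0.57 in control and fell by 0.78 in FBXL5ΔDC livers, an interaction of −1.35 (SE 0.19, edgeR adjusted p = 0.0293). Its pseudogene copy Ubb-ps, with −1.40 (SE 0.20), shares sequence with Ubb and is not independent of it.

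Prg4 and Lor rose in both genotypes. Prg4, a lubricating proteoglycan, was at 93.6, 76.8 and 89.2 CPM in treated control and 42.2, 51.6 and 33.0 CPM in treated FBXL5ΔDC livers. It had started higher in FBXL5ΔDC livers, at 15.03, 29.93 and 25.47 CPM against 13.75, 12.13 and 14.37 CPM in untreated control. The interaction of Prg4 was −1.84 (SE 0.32, edgeR adjusted p = 0.0456). Lor, loricrin of the skin envelope, was at 54.1, 51.0 and 25.2 CPM in treated control and 8.84, 9.20 and 4.07 CPM in treated FBXL5ΔDC livers, from 1.68 to 2.60 CPM untreated in both genotypes. Its interaction was −2.54 (SE 0.47, edgeR adjusted p = 0.0483).

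The cytosolic heat shock chaperones, which refold damaged proteins under heat shock factor 1, were low as a list. In edgeR Dnajb1 was the single called member of 20, and it held under 7 of 21 alternatives. Among others, the call was lost with upper-quartile scaling, with no filter and without any 1 library other than treated control replicate 3. DESeq2 called 12 lower and limma with quality weights 18. In edgeR 19 had a negative interaction, with a median of −1.62. In 17 of 20 the treated FBXL5ΔDC libraries all lay below treated control, against 11.2% of all genes. The median response was 1.42 in control and −0.44 in FBXL5ΔDC livers, and 13 members rose in control livers against 1 that rose and 4 that fell in FBXL5ΔDC livers. At an unadjusted p below 0.05, 18 of the 20 were lower, against 1629 of all 17585 genes.

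Hspa1a and Hspa1b, near-identical inducible genes of the major heat shock protein, had the most negative values of the list. Hspa1a was at 1463, 767 and 168 CPM in treated control and 3.61, 5.09 and 0.969 CPM in treated FBXL5ΔDC livers. Hspa1b was at 2860, 1546 and 385 CPM against 11.2, 11.4 and 2.52 CPM. Untreated livers spread widely, from 6.26 to 64.4 CPM for Hspa1a. The interactions of −8.17 (SE 1.67, edgeR adjusted p = 0.0857) and −7.73 (SE 1.60, edgeR adjusted p = 0.0881) did not pass, and reads shared by the pair make the split between them uncertain. Hspb1, a small heat shock protein, was at 1279, 794 and 112 CPM in treated control and 23.8, 24.0 and 21.2 CPM in treated FBXL5ΔDC livers (−4.37, SE 0.99, edgeR adjusted p = 0.0993). Hspa8, the constitutive chaperone, was at 3712, 3017 and 2865 CPM against 1213, 1247 and 918 CPM (−1.32, SE 0.29, edgeR adjusted p = 0.0793). Hsp90aa1 was at 2302, 1475 and 877 CPM against 331, 322 and 251 CPM (−2.12, SE 0.47, edgeR adjusted p = 0.0844). Treated control replicate 3 was the lowest control liver for each of these genes and lay above every treated FBXL5ΔDC liver.

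Endoplasmic reticulum chaperones showed the same direction at a smaller size. Of 22, 21 had a negative interaction, with a median of −0.85, and the median response was 0.51 in control and −0.45 in FBXL5ΔDC livers. None was called in edgeR with all libraries (17 lower at an unadjusted p below 0.05), while DESeq2 called 5 lower and limma with quality weights 16. Hspa5, the chaperone BiP, was at 1834, 2057 and 1527 CPM in treated control and 936, 964 and 678 CPM in treated FBXL5ΔDC livers (−1.34, SE 0.32, edgeR adjusted p = 0.0986). Hyou1, at 267, 273 and 127 CPM against 94.2, 86.4 and 99.1 CPM, had an interaction of −1.52 (SE 0.35, edgeR adjusted p = 0.0858). Control replicate 3 was low in both genes, and without it Hyou1 passed at −1.81 (edgeR adjusted p = 0.000132).

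Genes of the integrated stress response, which the kinase-driven factor ATF4 turns on, rose in both genotypes. The median response of 27 was 1.23 in control and 0.90 in FBXL5ΔDC livers, with 19 and 16 members that rose. In edgeR Ddit3 was the 1 called interaction, while DESeq2 and limma with quality weights each called 4 lower. Of the 27, 22 were negative, with a median of −0.52, which became −0.83 without untreated FBXL5ΔDC replicate 2. Trib3, a CHOP target, was at 19.0, 24.0 and 18.0 CPM in treated control and 9.57, 5.86 and 6.14 CPM in treated FBXL5ΔDC livers, near its untreated range of 6.15 to 10.2 CPM (−1.27, SE 0.32, edgeR adjusted p = 0.106). Atf3, another early stress factor, was at 671, 584 and 416 CPM against 57.8, 123 and 19.3 CPM, yet its wide spread left the interaction of −2.86 with an SE of 0.998 (edgeR adjusted p = 0.236). Gdf15, a secreted stress factor, leaned the other way, at 40.2, 25.8 and 146 CPM against 53.3, 160.0 and 97.8 CPM (1.45, SE 0.95, edgeR adjusted p = 0.527).

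Immediate early and AP-1 genes other than Jun mostly rose in both genotypes. The list's median response was 3.25 in control and 3.17 in FBXL5ΔDC livers, with 18 and 21 of 28 members that rose, and 17 had a positive interaction. Junb, another AP-1 subunit, was at 39.1, 25.2 and 128 CPM in treated control and 119, 268 and 144 CPM in treated FBXL5ΔDC livers (1.72, SE 0.73, edgeR adjusted p = 0.319). Here the treated groups overlapped through control replicate 3, and without it Junb passed at 2.71 (edgeR adjusted p = 0.00352). Targets of NRF2 and genes of glutathione synthesis rose in both genotypes, 18 of 28 in control and 19 in FBXL5ΔDC livers, with median responses of 1.35 and 1.27 and a median interaction of −0.02. None of their 28 members was called in edgeR (1 higher and 1 lower at an unadjusted p below 0.05). DESeq2 called 1 lower, and limma with quality weights 4 higher and 1 lower.

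**Figure D3:**
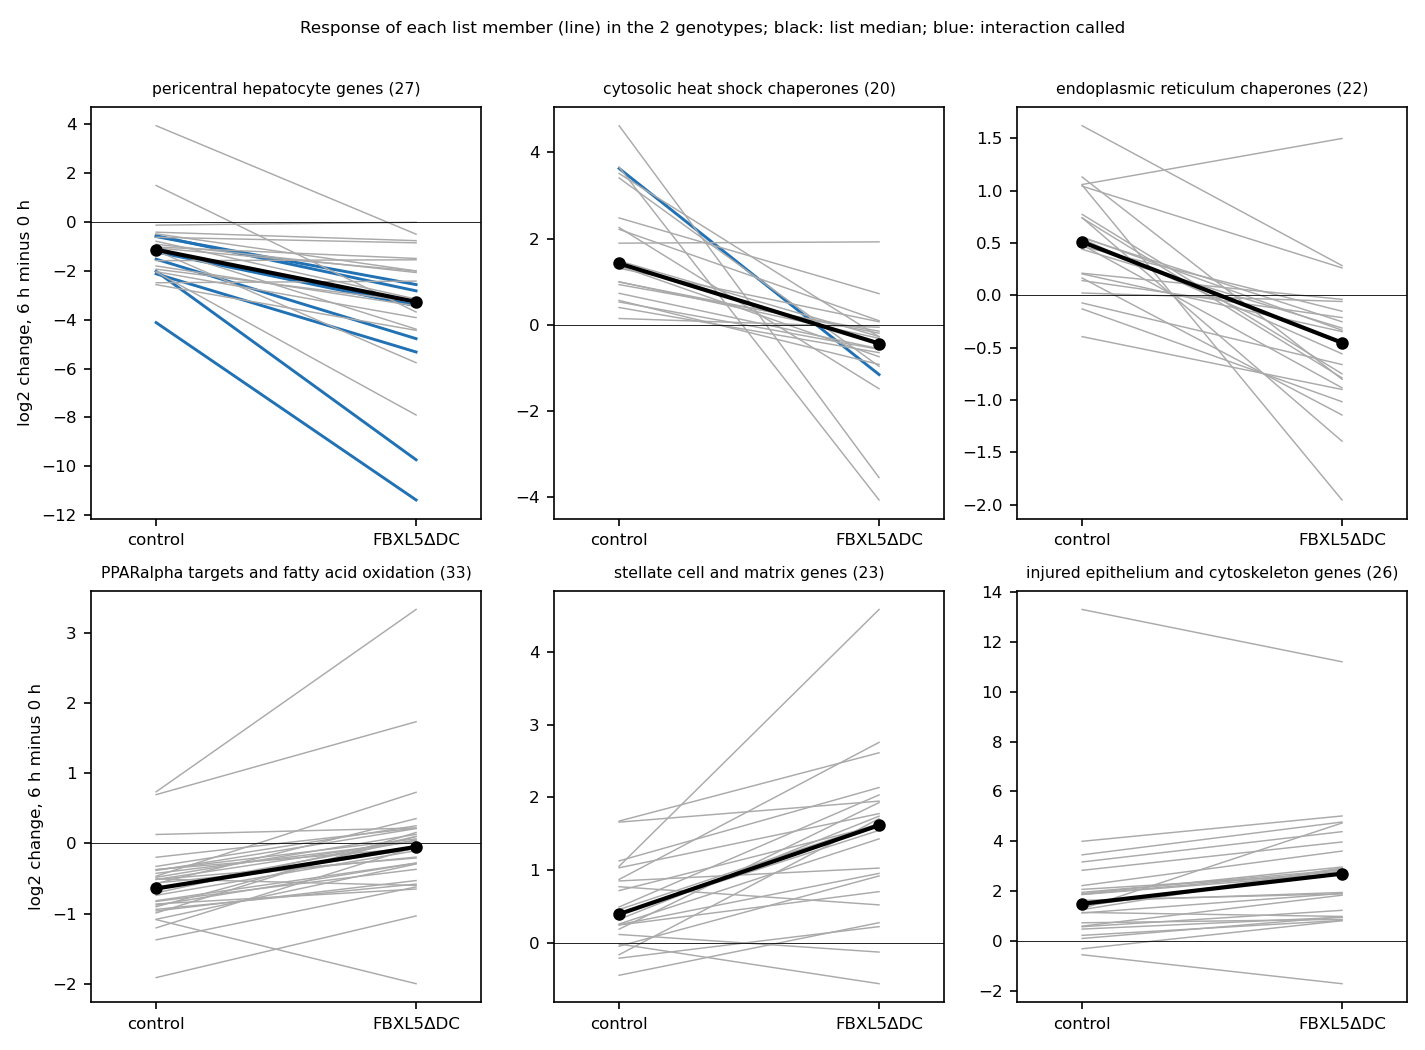
Each line is 1 gene of a list, drawn from its log2 change after acetaminophen in control livers to that in FBXL5ΔDC livers, with the list median in black and called genes in blue. The median crosses 0 for cytosolic heat shock chaperones (1.42 to −0.44) and endoplasmic reticulum chaperones (0.51 to −0.45), falls further for pericentral genes and rises for the 3 lists of the lower row.

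The 6 higher genes ended above treated control livers in all 3 treated FBXL5ΔDC libraries. Nt5c2 (chromosome 19 from 46883317 to 47015153), a cytosolic nucleotidase, was at 19.3, 16.6 and 21.4 CPM in untreated control and 12.7, 11.7 and 14.5 CPM in untreated FBXL5ΔDC livers. At 6 h it was at 12.9, 14.5 and 21.9 CPM in control and 33.3, 37.6 and 39.6 CPM in FBXL5ΔDC livers, an interaction of 1.73 (SE 0.27, edgeR adjusted p = 0.0327). FBXL5ΔDC livers thus went from the lowest to the highest group.

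Plin5 (chromosome 17 from 56111601 to 56117596), a coat protein of lipid droplets, fell in control livers to 49.0, 51.0 and 55.6 CPM and was at 79.8, 117 and 127 CPM in treated FBXL5ΔDC livers. Untreated livers had 80.6 to 149 CPM, and the interaction was 1.54 (SE 0.28, edgeR adjusted p = 0.0483). Peg3, an imprinted zinc finger gene, fell in control livers to 8.28, 7.92 and 10.04 CPM and was at 16.0, 25.2 and 26.2 CPM in treated FBXL5ΔDC livers, against 20.3 to 26.2 CPM in untreated livers (1.52, SE 0.26, edgeR adjusted p = 0.0456). Mpzl1, a membrane glycoprotein, was at 3.01, 2.497 and 3.63 CPM in treated control and 6.14, 8.30 and 6.42 CPM in treated FBXL5ΔDC livers (1.76, SE 0.32, edgeR adjusted p = 0.0483). In these 3 genes a fall passed in control livers, and in FBXL5ΔDC livers Mpzl1 rose and the other two did not pass. The pseudogene Gm15501 had an interaction of 1.69 (SE 0.32). Gm26586, antisense to Tpm4, was at 0 in all untreated FBXL5ΔDC libraries, at 0.124 to 0.239 CPM in control livers of both times, near the floor, and at 0.307, 1.296 and 0.924 CPM in treated FBXL5ΔDC livers. Fam222a, a lower gene, differed before the drug, at 2.43, 2.44 and 0.994 CPM in untreated control and 7.97, 7.45 and 6.82 CPM in untreated FBXL5ΔDC livers.

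Higher genes just short of the threshold were Irf1, an interferon regulatory factor, and Klf10, an early gene of TGF-β. Irf1 was at 13.5, 11.8 and 11.1 CPM in treated control and 24.7, 21.8 and 20.3 CPM in treated FBXL5ΔDC livers (1.14, SE 0.22, edgeR adjusted p = 0.06). Klf10 was at 10.5, 9.63 and 28.1 CPM against 50.9, 68.0 and 44.9 CPM (2.73, SE 0.53, edgeR adjusted p = 0.0614). Dimt1, at 2.09 (SE 0.41), Sema4c, at 2.56 (SE 0.51), Tcim, at 1.78 (SE 0.35), and Ntn1, at 1.43 (SE 0.29), had edgeR adjusted p of 0.0613 to 0.0617.

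Lipid oxidation and mitochondrial genes leaned towards higher responses in FBXL5ΔDC livers. The 33 PPARα targets and genes of fatty acid oxidation, which burn fat in the fasted liver, had a median response of −0.64 in control and −0.05 in FBXL5ΔDC livers. In control livers 18 fell, against 4 in FBXL5ΔDC livers. An interaction above 0 was found in 31, with a median of 0.58. In 17 the treated FBXL5ΔDC libraries all lay above control, against 9.74% of all genes. None was called in edgeR (19 higher and 1 lower at an unadjusted p below 0.05), while DESeq2 called 3 higher and limma with quality weights 20 higher and 1 lower.

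Ehhadh, a peroxisomal oxidation enzyme, was at 951, 1139 and 1373 CPM in treated control and 2417, 2589 and 2063 CPM in treated FBXL5ΔDC livers (1.15, SE 0.27, edgeR adjusted p = 0.0881). The treated groups did not overlap, and control replicate 3 was closer to its own group than to FBXL5ΔDC livers. Ppara itself, the receptor of this pathway, had a negative interaction of −0.91 (SE 0.38, edgeR adjusted p = 0.3), at 62.9, 50.5 and 31.0 CPM against 16.1, 17.0 and 30.6 CPM.

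All 13 mitochondrially encoded mRNAs had a positive interaction, with a median of 0.48. All 13 were higher in each treated FBXL5ΔDC library than in each treated control library, against 9.74% of all genes. Mitochondrial transcripts took 8.94%, 9.43% and 9.19% of counts in treated FBXL5ΔDC livers, 6.38%, 6.38% and 7.05% in treated control livers and 5.32% to 6.86% in untreated livers. A rise passed for 10 of 13 in FBXL5ΔDC livers and for none in control livers. In edgeR the interaction was called in none (8 higher at an unadjusted p below 0.05), in DESeq2 in 1 and in limma with quality weights in 6. mt-Nd1 was at 4290, 4087 and 5071 CPM in treated control and 7980, 8650 and 7350 CPM in treated FBXL5ΔDC livers (0.79, SE 0.20, edgeR adjusted p = 0.113). The 30 nuclear genes of respiratory chain subunits had smaller interactions, all 30 above 0 with a median of 0.35. None was called by edgeR (10 higher at an unadjusted p below 0.05) or DESeq2, and 10 by limma with quality weights. The 13 mRNAs come from 1 genome and are not independent of each other.

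Genes of NF-κB and interferon signalling and of sinusoidal and stellate cells had positive list medians, without a called gene in edgeR. Of 26 feedback and adhesion genes of NF-κB, 21 were positive, with a median interaction of 0.75. In all treated FBXL5ΔDC libraries 13 lay above treated control (9.74% of all genes) and none below (11.2% of all genes). The counts were 0 called in edgeR (9 higher and 1 lower at an unadjusted p below 0.05), 2 higher in DESeq2, and 10 higher and 1 lower in limma with quality weights. Socs3, a brake on cytokine receptors, was at 10.6, 10.1 and 33.6 CPM in treated control and 65.9, 96.0 and 79.5 CPM in treated FBXL5ΔDC livers (2.33, SE 0.57, edgeR adjusted p = 0.107). Vcam1, an adhesion molecule, was at 8.70, 17.1 and 21.0 CPM against 39.7, 29.2 and 46.0 CPM (1.48, SE 0.48, edgeR adjusted p = 0.18).

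Interferon-stimulated genes were positive in 21 of 32, with a median of 0.52 (0.26 without untreated control replicate 3). After the drug 14 lay above control without overlap, against 9.74% of all genes. A rise passed for 5 in control and 17 in FBXL5ΔDC livers. By edgeR none was called (7 higher and 2 lower at an unadjusted p below 0.05), by DESeq2 1 higher, and by limma with quality weights 8 higher and 1 lower. Ifit3b, an antiviral gene, was at 1.44, 2.73 and 4.97 CPM in treated control and 19.8, 17.3 and 15.3 CPM in treated FBXL5ΔDC livers (2.44, SE 0.55, edgeR adjusted p = 0.0844). Chemokines, cytokines and their receptors had a median interaction of −0.003 over 29 genes, and its sign changed under 14 of 21 alternatives.

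Stellate cell and matrix genes had a median of 0.94 over 23 genes, of which 20 were positive, the highest of the 42 lists in edgeR with all libraries. Without treated control replicate 3 it was 1.24, below injured epithelium genes (1.45) and cholangiocyte markers (1.43). Their median response was 0.39 in control and 1.62 in FBXL5ΔDC livers, with 1 and 14 that rose. None was called in edgeR (8 higher at an unadjusted p below 0.05), 4 in DESeq2 and 7 in limma with quality weights. Reln, a stellate cell glycoprotein, was at 18.5, 23.2 and 34.9 CPM in treated control and 42.8, 44.3 and 67.9 CPM in treated FBXL5ΔDC livers (1.74, SE 0.41, edgeR adjusted p = 0.0965). Untreated livers overlapped for Reln, at 18.5, 12.3 and 9.92 CPM in FBXL5ΔDC and 17.5, 21.8 and 28.03 CPM in control livers. Among other markers of stellate cells, Colec11 also lay above treated control, while the treated groups overlapped for Lrat and Des. Lrat was at 10.35, 10.89 and 5.31 CPM in treated control and 5.62, 7.07 and 4.71 CPM in treated FBXL5ΔDC livers. The summed level of the list was 313 to 568 CPM in treated control and 608 to 800 CPM in treated FBXL5ΔDC livers, and 189 to 383 CPM in untreated livers. The list also holds matrix genes, and its sum is not a measure of cell number.

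Sinusoidal endothelial markers were positive in 22 of 24, with a median of 0.58 (0.37 without treated control replicate 2). Their summed level was 346 to 614 CPM in treated control and 704 to 833 CPM in treated FBXL5ΔDC livers, and 344 to 435 CPM in untreated livers. None was called in edgeR (7 higher at an unadjusted p below 0.05), 2 in DESeq2 and 11 in limma with quality weights. Stab2, a scavenger receptor of sinusoids, was at 23.9, 19.5 and 34.0 CPM in treated control and 48.4, 45.6 and 63.1 CPM in treated FBXL5ΔDC livers (0.99, SE 0.28, edgeR adjusted p = 0.135). The part of these cells' RNA in other results was not tested.

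Genes of injured epithelium and the cytoskeleton, such as the keratin gene Krt18 and the actin gene Actg1, rose in both genotypes, 15 of 26 in control and 21 in FBXL5ΔDC livers. The median interaction was 0.88, and 23 were positive. No member was called in edgeR (2 higher at an unadjusted p below 0.05) or in DESeq2, and 14 were higher in limma with quality weights. Krt18 was at 282, 197 and 1417 CPM in treated control and 1476, 1523 and 1380 CPM in treated FBXL5ΔDC livers. Control replicate 3 stood within the FBXL5ΔDC range, and the interaction moved from 1.38 (SE 0.84, edgeR adjusted p = 0.501) to 2.78 (edgeR adjusted p = 4.52e-05) without it.

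Markers of dendritic cells, in which the deletion is driven, summed to 193 to 285 CPM in treated control and 254 to 289 CPM in treated FBXL5ΔDC livers, and 220 to 254 CPM in untreated livers. Their median interaction was 0.34 over 24 genes (0.05 without treated control replicate 1 and 0.57 without replicate 2), and none was called in edgeR (1 higher and 2 lower at an unadjusted p below 0.05), while DESeq2 and limma with quality weights each called 1 higher and 1 lower. Among the defining markers, Flt3 and Xcr1 were at 0 in 5 of 12 libraries and Cd209a in 8, whereas Zbtb46 was at 2.63 to 4.89 CPM in all. For Xcr1 the libraries at 0 were every treated FBXL5ΔDC liver and control replicate 3 at both times, and the highest value was 0.606 CPM. No defining dendritic cell marker passed 4.89 CPM in any library. The sum thus rests mostly on other members of the list and is not a measure of cell number. Irf8, a factor of dendritic cells and macrophages, was at 5.32, 7.61 and 5.73 CPM in treated control and 15.9, 23.8 and 20.0 CPM in treated FBXL5ΔDC livers (1.41, SE 0.36, edgeR adjusted p = 0.107). Kupffer cell markers summed to 609 to 689 CPM in treated control and 720 to 846 CPM in treated FBXL5ΔDC livers, from 413 to 514 and 495 to 555 CPM at 0 h. Their median interaction was 0.21, and 0.04 to 0.39 without treated FBXL5ΔDC replicate 1 or 2. None was called in edgeR (2 higher and 1 lower at an unadjusted p below 0.05). Among the defining Kupffer cell markers, the treated groups overlapped for Cd5l, Vsig4, Timd4 and Marco, and not for Clec4f. Cd5l was at 41.83, 59.15 and 37.65 CPM in treated control and 87.39, 40.39 and 64.97 CPM in treated FBXL5ΔDC livers. The Kupffer cell sum is likewise not a measure of cell number.

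Neutrophil markers summed to 104 to 198 CPM in treated control and 162 to 234 CPM in treated FBXL5ΔDC livers, and monocyte and macrophage markers to 1094 to 1687 and 1645 to 1969 CPM. Ly6g was at 0 in 11 of 12 libraries and Cd3e in 2. The highest defining markers reached 3.265 CPM (S100a8, neutrophil) and 7.674 CPM (Plac8, monocyte) in any library. Both sums thus rest mostly on other members of the lists and are not a measure of cell number. No interaction was called in edgeR among the 10 neutrophil (0 at an unadjusted p below 0.05) or the 23 monocyte markers (2 higher and 2 lower). In limma with quality weights 1 and 3 were higher, and in DESeq2 0.

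**Figure D4:**
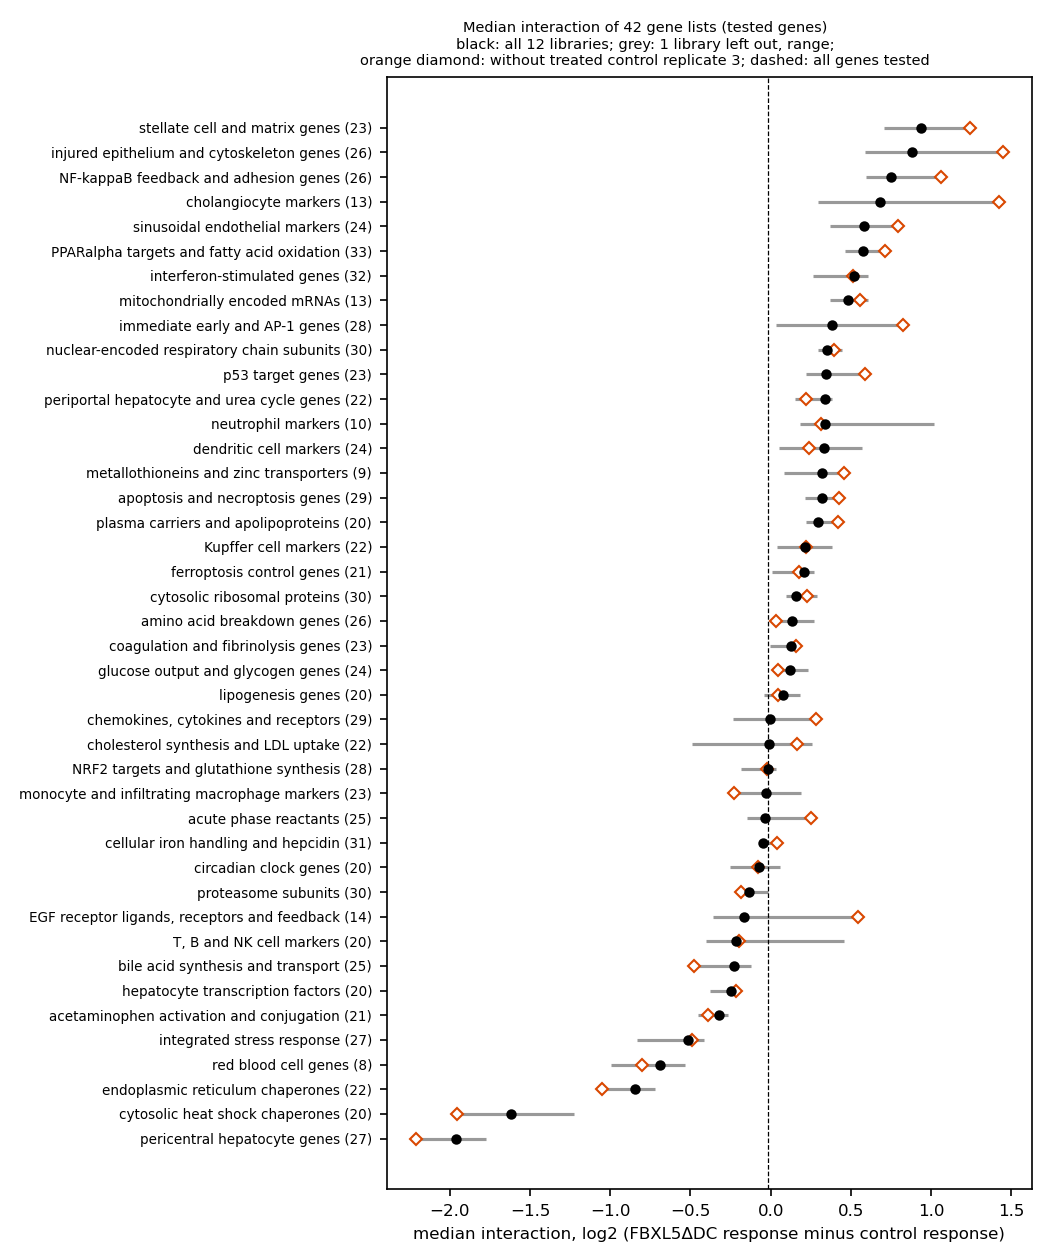
Median interaction (log2, FBXL5ΔDC response minus control response) of the tested genes of 42 lists, with the number of genes in brackets, the range over fits that leave out 1 library in grey, and the value without treated control replicate 3 as an orange diamond. Pericentral genes (−1.96) and heat shock chaperones (−1.62) lie at the bottom, and stellate cell genes (0.94) at the top.

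Iron genes bear on the deleted gene, since IRP2 binds the mRNAs of iron uptake and storage. The 31 genes of iron handling had a median interaction of −0.05, with 14 positive and 17 negative, and none was called in edgeR (2 higher and 6 lower at an unadjusted p below 0.05). DESeq2 called 1 higher, and limma with quality weights 3 higher and 6 lower. Ireb2, which encodes IRP2, was at 62.9, 85.8 and 51.4 CPM in treated control and 38.1, 33.2 and 49.97 CPM in treated FBXL5ΔDC livers, from 74.7 to 89.1 CPM untreated (−0.81, SE 0.26, edgeR adjusted p = 0.178). Hamp, the iron hormone hepcidin, was at 424, 485 and 155 CPM in treated control and 114, 216 and 141 CPM in treated FBXL5ΔDC livers (−1.51, SE 0.53, edgeR adjusted p = 0.226). Tfrc, the transferrin receptor, was at 71.5, 46.2 and 35.4 CPM against 30.6, 42.9 and 43.4 CPM (−0.71, SE 0.31, edgeR adjusted p = 0.321). In each of these 3 genes control replicate 3 was the lowest treated control liver.

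Without that replicate 2 iron genes were higher, Slc39a14, a zinc and iron importer (2.23, edgeR adjusted p = 0.00082), and Hmox1, which frees iron from heme (1.94, edgeR adjusted p = 0.0151). Lower were Ireb2 (−0.97, edgeR adjusted p = 0.00997), Hamp (−1.87, edgeR adjusted p = 0.0045), Tfrc (−0.92, edgeR adjusted p = 0.0273) and Alas1, the first enzyme of heme synthesis (−1.92, edgeR adjusted p = 0.00169). Of the 31 iron genes 2 were thus higher and 4 lower, while 5.97% and 7.74% of all genes were. Replicate 3 lay nearer to the treated FBXL5ΔDC livers in all 6, as in 81% of all genes called without it. The 21 genes that control ferroptosis, iron-dependent death by lipid peroxidation, had a median interaction of 0.21 (0.01 without treated FBXL5ΔDC replicate 2). Gpx4, which removes lipid peroxides, was at 188, 185 and 181 CPM in treated control and 211, 231 and 172 CPM in treated FBXL5ΔDC livers (0.31, SE 0.17, edgeR adjusted p = 0.455). None of these 21 was called in edgeR (1 lower at an unadjusted p below 0.05) or DESeq2, and 1 higher and 1 lower in limma with quality weights.

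Where treated control replicate 3 lay between the treated groups was described in genes chosen without it. Its position is 0 at the mean of treated control replicates 1 and 2 and 1 at the mean of treated FBXL5ΔDC livers. In the 2530 genes called without it and placed on this scale, the median position was 0.85, and 2048 (81.0%) lay nearer to FBXL5ΔDC livers. The share was 88.4% of genes with a higher and 75.2% with a lower interaction. In 882 genes it lay beyond the FBXL5ΔDC mean. The genes were chosen with replicates 1 and 2, which also set position 0, and this favours positions above 0. No other library was placed on the scale for comparison.

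By gene group the position varied. For injured epithelium genes the median was 0.99, with 16 of 16 nearer to FBXL5ΔDC livers. Endoplasmic reticulum chaperones had 0.88 (16 of 17), sinusoidal endothelial markers 0.77 (10 of 12) and PPARα targets 0.62 (13 of 17). Heat shock chaperones were midway, at 0.55 (9 of 16). Pericentral genes had 0.46, with 4 of 17 nearer to FBXL5ΔDC livers, acetaminophen activation genes 0.33 (1 of 5) and integrated stress response genes 0.21 (1 of 5). In the 51 genes called with all libraries, a choice that used this one, the median was 0.285 and Gm14403 was the 1 gene nearer to FBXL5ΔDC livers.

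Without treated control replicate 3, lists with few or no calls gained many, read against 5.97% of genes higher and 7.74% lower. Of pericentral genes 17 of 27 were lower, of heat shock chaperones 16 of 20 and of endoplasmic reticulum chaperones 16 of 22. Among injured epithelium genes 16 of 26 were higher, among PPARα targets 16 of 33, among sinusoidal endothelial markers 12 of 24 and among NF-κB genes 10 of 27. Mitochondrially encoded mRNAs gained 6 of 13 higher and stellate cell genes 8 of 23. What set this liver apart was not tested.

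**Figure D5:**
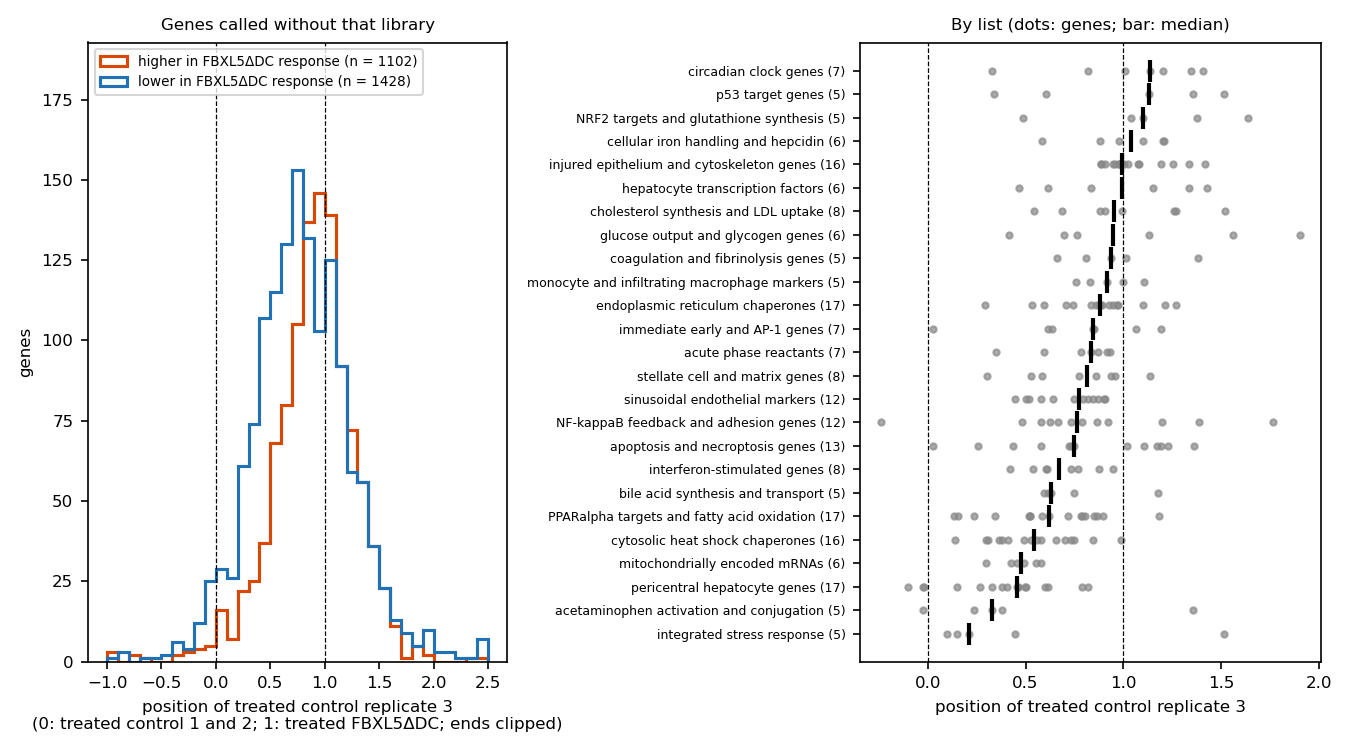
Position of treated control replicate 3 between the other treated control livers (0) and the treated FBXL5ΔDC livers (1) in genes called without it, as counts of genes (left) and by list (right, dots are genes and bars medians). Most genes lie near 1 (median 0.85), injured epithelium genes at 0.99, and pericentral (0.46) and integrated stress response genes (0.21) nearer to 0.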

How the data were processed

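The authors deposited 1 table of estimated counts (expected counts) per gene for 12 libraries, without normalization, from whole-liver total RNA. The submitters' processing notes name Trim Galore 0.6.6, HISAT2 2.2.1 and the mm10 build. The counting program and its strand setting are not given in the sources used here. The values were already whole. Of values from 1 to 40, 26.5% to 28.5% were multiples of 4, where an even spread would give 1 in 4. The fragments behind a count are not known. The test had been planned for raw counts and was kept. Identifiers matched GENCODE vM21 of GRCm38 for 98.1% of genes. No library was a copy of another (lowest chi-square per degree of freedom 16.1).

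Genes were filtered with filterByExpr by group, scaled by TMM (factors 0.855 to 1.14) and fitted in edgeR 4.0.16 under R 4.3.3 (robust quasi-likelihood, 1 coefficient per group, 8 residual degrees of freedom, biological coefficient of variation 0.392). Calls used a Benjamini-Hochberg adjusted p below 0.05 over all genes of a contrast. CPM used TMM-scaled sizes. A mean under 12 counts per library was taken as the detection floor, which covers counting error only. Alternatives were other scalings and filters, DESeq2 1.42.0, limma 3.58.1 with voom sample quality weights, non-robust dispersions, counts divided by 4, a replicate block, and each library left out.

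The members and the 42 gene lists were chosen with earlier results of these data known. Genes were named by rule: Fbxl5, Itgax, Ireb2, Cyp2e1 and Glul, up to 15 called genes a direction with the largest interaction and a mean of at least 5 CPM (filled to 10 by smallest p), and up to 3 genes a list of at least 1 CPM. Other genes named were chosen after their values were seen. Some genes' results are not reported here. Lists were described by counts and medians and were not tested.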

Additional observations from a re-analysis of the deposited data

Results flagged for a closer look

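The response to acetaminophen differed between genotypes by the interaction test itself (edgeR, adjusted over all genes) in 6 genes with a higher and 45 with a lower value in FBXL5ΔDC livers. All interactions below are log2 differences.

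Metabolic and pericentral genes with lower values were Cyp2c38 (−3.20), Cyp2e1 (−2.21), Cyp1a2 (−2.25), Cyp2c29 (−1.96), Gulo (−2.29), Oat (−3.25), Akr1c6 (−2.11), Lhpp (−3.38) and Sdr42e1 (−1.32). Stress and ubiquitin genes were Ddit3 (−4.36), Jun (−3.17), Dnajb1 (−4.79), Ubb (−1.35) and Ubb-ps (−1.40), and the secreted or structural products were Prg4 (−1.84) and Lor (−2.54). Genes of transcription and RNA processing were Hexim1 (−1.86), Papola (−0.99), Ints6 (−1.93), Pparg (−2.58), Nr3c2 (−1.77), Hhex (−1.35), Bcorl1 (−2.04), Zrsr1 (−1.46), Tasor (−1.11) and Kansl1l (−1.35). The others were Abtb2 (−2.41), Psd3 (−1.23), Npr2 (−2.10), Atat1 (−1.27), Klhl22 (−1.51), Fam222a (−3.16), Golim4 (−1.37), Sh3d19 (−0.77), Tenm3 (−1.81), C2cd2 (−1.33), Mfsd11 (−1.17) and Gm14403 (−2.37), a zinc finger gene with close copies. The higher genes were Nt5c2 (1.73), Mpzl1 (1.76), Gm15501 (1.69), Plin5 (1.54) and Peg3 (1.52).

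For genes with a group at or near 0 the fitted values depend on the prior count and are no bound. These were −9.36 for Slc13a3, −8.28 for Tbx3os1, −8.21 for Dpf3, −8.71 for Neurl1b, −7.71 for Sp5, −7.25 for Slc1a2 and 9.15 for Gm26586. With the floor in place of the empty group, the bounds were −2.63 for Slc13a3, −1.55 for Tbx3os1, −1.48 for Dpf3, −0.98 for Sp5 and −5.70 for Slc1a2.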

How the results depend on the processing

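None of the 51 called genes reversed its direction under the 21 alternatives. Of the genes far from the threshold, Glul turned to −0.24 without treated control replicate 2, and Itgax to −0.92 without untreated control replicate 2. The 6 higher and 45 lower genes became 2 and 18 with upper-quartile scaling, 213 and 476 with DESeq2, and 975 and 1239 with limma and sample quality weights, which gave treated control replicate 3 a weight of 0.186 (others 0.568 to 1.92). Lower genes made up 88.2% of calls, 69.1% with DESeq2 and 56.0% with quality weights. Counts divided by 4 left 28 lower genes. The fit with a replicate block left 24 lower and 4 higher genes. Same-numbered samples did not deviate together (0 of 18 pairs with a correlation over 0.1, and 2 of 12 libraries correlated best with their own number), so the block pairs by number alone. Leaving out 1 library gave 0 to 1103 higher and 1 to 1430 lower genes, the highest values without treated control replicate 3. The cause of these shifts was not tested. Genes under 12 counts per library allow no fold.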

Other observations

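Of 20 hepatocyte transcription factors 15 had a negative interaction, with a median of −0.25 (−0.38 without treated FBXL5ΔDC replicate 3). None was called in edgeR (5 lower at an unadjusted p below 0.05) or DESeq2, and 8 were lower in limma with quality weights. Onecut1, a factor of hepatocyte differentiation, was at 42.4, 40.5 and 1.204 CPM in treated control and 2.12, 2.03 and 1.68 CPM in treated FBXL5ΔDC livers (interaction −4.15, SE 1.42, edgeR adjusted p = 0.226). Of 25 genes of bile acid synthesis and transport 17 were negative, with a median of −0.23 (−0.12 without treated control replicate 1 and −0.48 without replicate 3). None was called in edgeR (1 higher and 7 lower at an unadjusted p below 0.05), 1 lower in DESeq2, and 2 higher and 5 lower in limma with quality weights. Cyp7b1, which hydroxylates oxysterols, was at 127, 89.7 and 47.9 CPM against 82.5, 24.2 and 72.4 CPM (−1.71, SE 0.59, edgeR adjusted p = 0.224). Plasma carriers and apolipoproteins were positive in 17 of 20, with a median of 0.30. Neither edgeR (3 higher at an unadjusted p below 0.05) nor DESeq2 called any, and 6 were higher in limma with quality weights. Apoa4, an apolipoprotein of intestine and fasted liver, was at 607, 357 and 1927 CPM against 2829, 5157 and 2826 CPM (2.83, SE 1.11, edgeR adjusted p = 0.288). Amino acid breakdown genes (0.14), glucose genes (0.12), lipogenesis genes (0.08), coagulation genes (0.12) and acute phase genes (−0.04) had medians close to that of all genes.

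Growth and death genes were mixed. Hbegf, a ligand of the EGF receptor, was at 1.45, 1.08 and 7.83 CPM in treated control and 25.8, 107.5 and 21.9 CPM in treated FBXL5ΔDC livers (4.43, SE 1.296, edgeR adjusted p = 0.166). Apaf1, the apoptosome scaffold, was at 2.26, 3.23 and 5.01 CPM against 9.66, 10.8 and 12.9 CPM (1.96, SE 0.43, edgeR adjusted p = 0.081), and Bbc3, the p53 target PUMA, at 15.2, 10.5 and 7.15 CPM against 3.93, 1.84 and 1.79 CPM (−1.93, SE 0.50, edgeR adjusted p = 0.111). The clock gene Per3 was at 8.76, 14.0 and 1.07 CPM in treated control and 1.69, 1.099 and 0.685 CPM in treated FBXL5ΔDC livers (−3.74, SE 0.94, edgeR adjusted p = 0.11). Proteasome subunits had a median of −0.14 over 30 genes (−0.01 without treated control replicate 1), cytosolic ribosomal proteins of 0.16 over 30 (0.10 to 0.29 without 1 treated FBXL5ΔDC library), and red blood cell genes of −0.69 over 8. In edgeR none of the 3 lists had a called gene, and at an unadjusted p below 0.05 there were 2 lower proteasome genes and none in the other two. DESeq2 called 0, and limma with quality weights 2 lower proteasome genes and 1 lower red blood cell gene.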
